A study of Mus musculus with 20 samples.

Results

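Mcmdc2, Tcf24 and Ppp1r42 are neighbours on mouse chromosome 1, interleaved with and flanked by Sgk3, Snhg6, Cops5 and Cspp1. These 7 genes, of 16115 in the deposited expression table, were chosen by name because the first 3 have low RNA levels that were lower in livers given oxymetholone, while the other 4 served as flanking genes. All 7 were in the table. The values that chose them were the counts and CPM (counts scaled for the size and composition of each library) of all 5 groups, so every difference with oxymetholone below is a description and carries no test for these genes.

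Liver RNA of male mice was sequenced, with month 18 as the collection time of every sample, treated or not. Mutant mice carried the Fancd2 genotype d2-/- and received metformin plus oxymetholone (3 libraries), oxymetholone (5 libraries), metformin (3 libraries) or no drug (3 libraries). Untreated wild type mice gave 4 libraries. No wild type mouse received a drug, so a response to oxymetholone in wild type liver was not measured. Fancd2 acts in the repair of DNA crosslinks in Fanconi anaemia, oxymetholone is an anabolic androgen and metformin a glucose-lowering drug. Of 20 labelled samples 18 were used, with library totals of 20199671 to 32747780 counts. The genotype labels were not checked against the level of the mutated gene, which was not analysed here. Hepatocyte markers summed to 32600 to 83100 CPM over the libraries. Metformin replicate 3 and both-drugs replicate 3 stood apart, with median correlations to the other libraries of 0.926 and 0.916, and results that rest on them are also given without them. Nothing in the labels says how the mice were housed or batched, and p-values measure only the spread between these samples.

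The 3 low genes are best known outside the liver. MCMDC2 resembles the MCM helicase proteins and acts in meiotic recombination, TCF24 is a basic helix-loop-helix transcription factor, and PPP1R42 is a leucine-rich regulatory subunit of protein phosphatase 1 described in testis. The flanking genes have general roles. SGK3 is a kinase of the AGC family, Snhg6 is a long noncoding RNA that hosts small nucleolar RNAs, COPS5 is the catalytic subunit of the COP9 signalosome, and CSPP1 is a protein of the centrosome and cilium.

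Mcmdc2 was nearly undetected with oxymetholone. It had 0, 0 and 5 counts in the livers given both drugs and 0, 1, 0, 0 and 0 counts in those given oxymetholone. It had 13, 3 and 8 counts with metformin, 17, 24 and 32 counts in untreated mutants, and 14, 2, 5 and 12 counts in wild type. Of the 8 libraries with oxymetholone, 6 held no Mcmdc2 read, while each of the 10 libraries without it held at least 2. In CPM, untreated mutants had 0.604, 1.31 and 1.17, the highest group mean of the 5.

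Tcf24, the most abundant of the 3, was low but detected in every library. Its level was 0.347, 0.204 and 0.823 CPM with both drugs, and 0.360, 0.185, 0.190, 0.243 and 0.0813 CPM with oxymetholone. It was 3.26, 0.594 and 9.24 CPM with metformin, 2.34, 14.4 and 5.32 CPM in untreated mutants, and 10.5, 0.320, 1.11 and 7.13 CPM in wild type. Every oxymetholone library was below every untreated mutant, but wild type replicate 2 and metformin replicate 3 lay among or near the livers given oxymetholone.

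By group mean, Ppp1r42 was likewise lowest with oxymetholone, then with both drugs, and highest in untreated mutants. Its mean was higher with metformin (1.24 CPM) than in wild type (0.94 CPM), unlike that of Tcf24 (4.37 and 4.76 CPM). The level of Ppp1r42 was 0.0495, 0.255 and 0.259 CPM with both drugs, and 0.0801, 0.0371, 0.0476, 0.122 and 0.0542 CPM with oxymetholone. It was 1.37, 0.132 and 2.23 CPM with metformin, 0.852, 1.64 and 2.60 CPM in untreated mutants, and 1.70, 0.0712, 0.573 and 1.43 CPM in wild type. Wild type replicate 2 and metformin replicate 3 were again the lowest livers without oxymetholone, as they were for Mcmdc2.

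**Figure D1:**
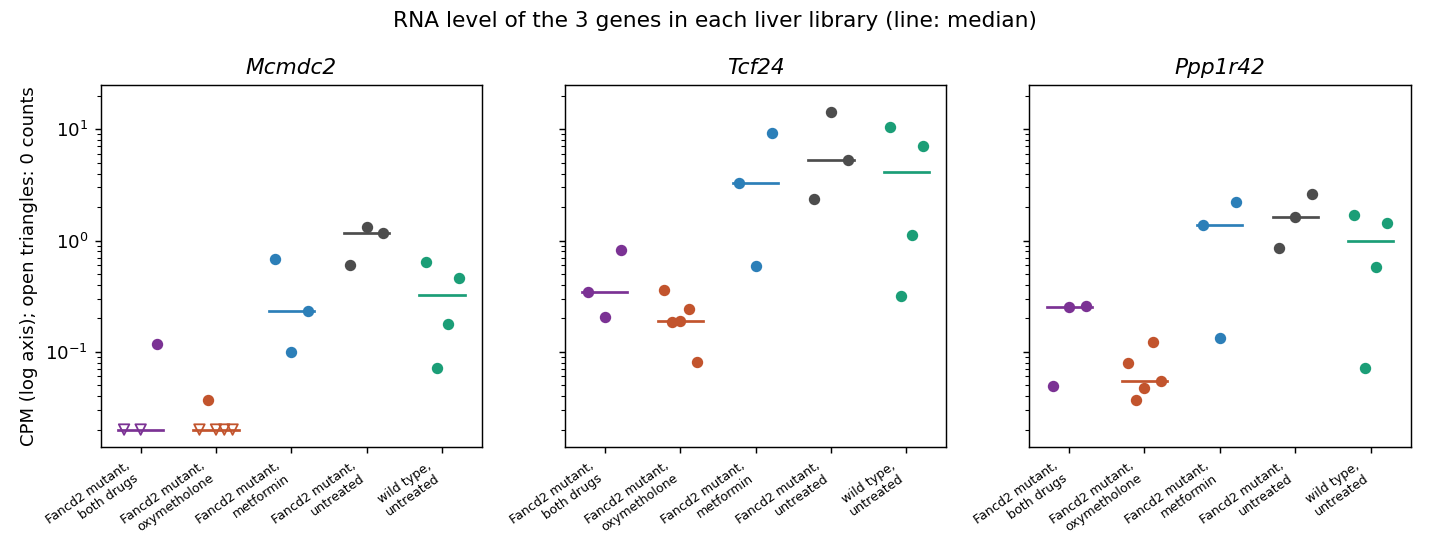
RNA level (CPM, log axis) of Mcmdc2, Tcf24 and Ppp1r42 in each of the 18 liver libraries by group, with the group median as a line and libraries without a read as open triangles. Mcmdc2 has no read in 6 of the 8 libraries with oxymetholone, and 1 metformin and 1 wild type library are low for all 3 genes.

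Summed over libraries, the 3 genes had 6, 73 and 26 counts in the 8 libraries with oxymetholone, against 130, 1326 and 324 counts in the 10 without, in the order Mcmdc2, Tcf24, Ppp1r42. Their median levels were 0, 0.224 and 0.0671 CPM with oxymetholone, against 0.533, 4.29 and 1.40 CPM without. With so few reads, counting error is large for Mcmdc2. After scaling for depth, its 1 count with oxymetholone against 73 in untreated mutants was a ratio of 0.751% (95% exact interval 0.0188 to 4.32%). The ratio was 3.12% for Tcf24 (2.04 to 4.60%) and 3.95% for Ppp1r42 (1.76 to 7.73%). These intervals cover counting error only.

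On the log2 scale, the edgeR fit gave oxymetholone minus untreated mutant differences of -6.40 ± 1.03 (SE) for Mcmdc2, -5.11 ± 1.01 for Tcf24 and -4.56 ± 0.89 for Ppp1r42 (n = 5 and 3). The Mcmdc2 value depends on a near-zero group and is no measure of its fold. In this comparison 0.0434% of all genes passed an adjusted p of 0.05, and Mcmdc2 was among them. Its call was lost when any 1 of the 8 libraries other than untreated mutant replicate 2 was left out. All 3 genes had no overlap between the 5 oxymetholone and 3 untreated mutant libraries, as did 1.59% of all genes in the lower direction. In the authors' deposited table the same 3 differences were -4.86, -4.34 and -3.84.

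The 3 genes were also low in the libraries with both drugs. Against untreated mutants the differences were -4.16 ± 1.01 for Mcmdc2, -3.91 ± 1.15 for Tcf24 and -3.10 ± 0.97 for Ppp1r42 (n = 3 each), with no overlap for all 3, as for 3.95% of all genes. This comparison shares the untreated mutants with the one above. Against metformin alone, which shares no library with the first comparison, the differences were -2.51 ± 1.03, -3.17 ± 1.12 and -2.65 ± 0.96 for the same genes. Here none of the 3 was free of overlap, and 2.15% of all genes were so in the lower direction. Without metformin replicate 3, an alternative chosen after seeing the data, the overlap ended for all 3. The highest both-drugs value was then 0.118 CPM against a lowest metformin value of 0.232 for Mcmdc2, 0.823 against 3.26 for Tcf24 and 0.259 against 1.37 for Ppp1r42, and 4.39% of all genes were lower without overlap. Without both-drugs replicate 3 as well, all 3 genes and Sgk3 were lower without overlap, beside 11.9% of all genes in groups of 2. In the authors' deposited table, both drugs minus metformin was -2.84, -3.60 and -3.39.

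The difference between these contrasts, both drugs minus metformin less oxymetholone minus untreated mutant, contains the values that chose the genes and is given as a description. It was 3.89 ± 1.59 (log2) for Mcmdc2, 1.93 ± 1.45 for Tcf24 and 1.91 ± 1.30 for Ppp1r42. Over the whole table edgeR called 0 genes (0%) for it, with 483 (3%) at an unadjusted p under 0.05. The Mcmdc2 estimate rested on the 5 counts of both-drugs replicate 3, being 0.32 without that library, and turned to -0.13 without it and metformin replicate 3.

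The 4 flanking genes had higher levels in CPM, and their groups overlapped. Cops5 averaged 101 ± 8.48 CPM with both drugs, 85.3 ± 18.5 with oxymetholone, 84.4 ± 24.7 with metformin, 106 ± 22.8 in untreated mutants and 93.3 ± 17.7 in wild type (SD, n = 3, 5, 3, 3 and 4). In the same order of groups, Sgk3 averaged 18.1 ± 6.22, 16.2 ± 5.16, 16.4 ± 5.67, 21.1 ± 4.33 and 16.4 ± 4.15 CPM. Snhg6 averaged 10.8 ± 1.77, 7.55 ± 4.37, 9.69 ± 7.23, 12.2 ± 5.03 and 8.93 ± 3.80 CPM. Cspp1, the steadiest, averaged 7.87 ± 1.31, 7.08 ± 1.29, 7.43 ± 1.12, 8.06 ± 1.61 and 8.48 ± 0.983 CPM. For each flanking gene the libraries given oxymetholone overlapped the untreated mutants, and those given both drugs overlapped the metformin livers. In these comparisons 1.87% and 2.24% of all genes were higher without overlap.

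**Figure D2:**
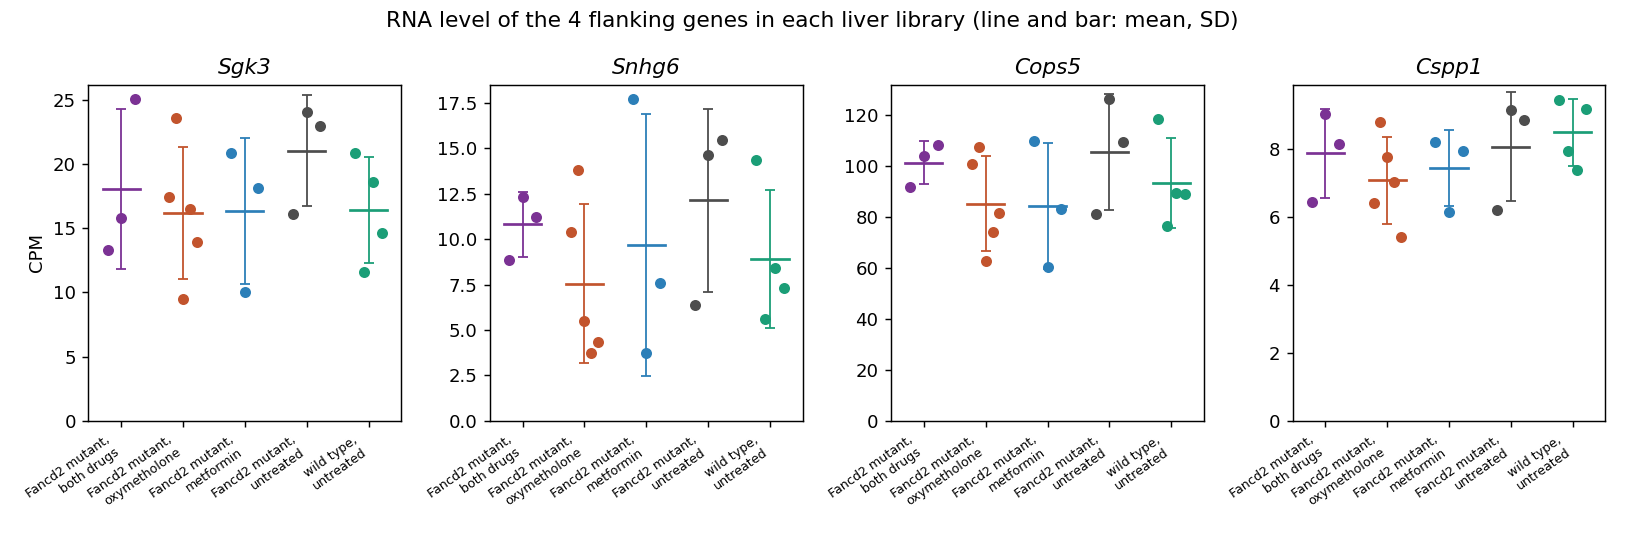
RNA level (CPM) of Sgk3, Snhg6, Cops5 and Cspp1 in each of the 18 liver libraries by group, with the group mean and SD as line and bar. The groups overlap for all 4 genes, and Cops5 lies between 60.2 and 126 CPM.

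Oxymetholone minus untreated mutant was -0.38 ± 0.31 (log2) for Sgk3, -0.69 ± 0.49 for Snhg6, -0.31 ± 0.23 for Cops5 and -0.19 ± 0.21 for Cspp1. Their median of -0.34 lay below the 0.03 of all genes. With both drugs minus metformin the differences were 0.15 ± 0.35, 0.16 ± 0.56, 0.26 ± 0.26 and 0.08 ± 0.24 in the same order, and their median was 0.16 against -0.02 for all genes. The sign turned in 4 of 13 alternatives for Sgk3, 2 for Snhg6 and 4 for Cspp1, so no direction is given for them. None of the 4 had an unadjusted p under 0.05 in the edgeR fit in either comparison, where 4.8% and 3.43% of all genes did. With limma-voom and quality weights 3 of the 4 did for oxymetholone against untreated mutants, where 3310 genes of the table did. These were Snhg6 at -1.23, Sgk3 at -0.52 and Cops5 at -0.47, with limma adjusted p of 0.164, 0.227 and 0.194.

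The other genes nearby were set beside the 7. The table holds 15 genes within 1 Mb of Mcmdc2, of which 8 are not among the 7. The order in the GENCODE annotation of an earlier build is Rrs1, Adhfe1, 2610203C22Rik, Vxn, Mybl1, Vcpip1, 1700034P13Rik, Sgk3, Mcmdc2, Snhg6, Tcf24, Ppp1r42, Cops5, Cspp1, Arfgef1. Thus Snhg6 lies between Mcmdc2 and Tcf24, while Tcf24 and Ppp1r42 are adjacent and on the same strand. For the 8 other neighbours, oxymetholone minus untreated mutant ran between -0.52 and 1.45 (log2), with no unadjusted p under 0.05 in edgeR and none free of overlap. Both drugs minus metformin ran between -0.17 and 2.54, again with no unadjusted p under 0.05. Of all genes 4.8% and 3.43% had one in the first and second comparison. Vcpip1, a deubiquitinase gene, was the 1 gene free of overlap, higher with both drugs than with metformin, as were 2.24% of all genes. The upper end for both drugs minus metformin was Mybl1, a transcription factor gene of male meiosis. It had 1.83, 1.02 and 40.3 CPM with both drugs and 0.789, 0.396 and 6.14 CPM with metformin, so 1 library made its difference.

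**Figure D3:**
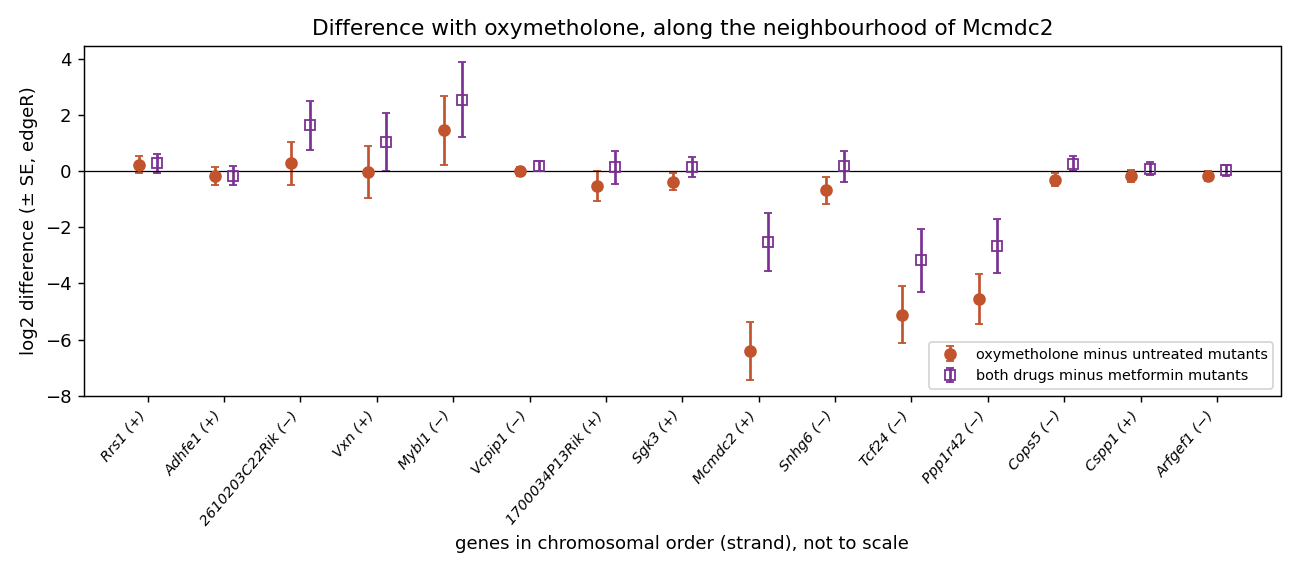
Log2 difference (± SE, edgeR) with oxymetholone for the 15 genes near Mcmdc2 in chromosomal order, not to scale, as oxymetholone minus untreated mutants (filled) and both drugs minus metformin (open). Mcmdc2, Tcf24 and Ppp1r42 lie between -6.40 and -2.51, and Sgk3, Snhg6, Cops5 and Cspp1 between -0.69 and 0.26.

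Annotated Mcmdc2 and Snhg6 overlap by 127 bases on opposite strands, and Cops5 and Cspp1 by 182 bases. The strand setting of the counting is not given in the sources used here, so reads in these stretches cannot be assigned to 1 gene of each pair. Snhg6 had 92 to 478 counts in the libraries with oxymetholone, of which 6 had no Mcmdc2 count.

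Differences with metformin and with genotype are given for the 3 genes next. The untreated mutants enter both, and their high values are part of what chose the genes, so these differences are descriptions too. A choice of genes high in untreated mutants lowers the first and raises the second. Metformin minus untreated mutant was -1.65 ± 0.85 (log2) for Mcmdc2, -0.74 ± 1.0 for Tcf24 and -0.45 ± 0.85 for Ppp1r42 (n = 3 each). Untreated mutant minus wild type was 1.61 ± 0.77 for Mcmdc2, 0.62 ± 0.93 for Tcf24 and 0.86 ± 0.79 for Ppp1r42 (n = 3 and 4). Over the whole table edgeR called 0 genes (0%) in each, while 914 genes (5.67%) and 416 genes (2.58%) had an unadjusted p under 0.05. Metformin mutants against wild type share no library with oxymetholone against untreated mutants. Values of these groups were still among those that chose the genes, so their differences are descriptions as well. The differences were -0.05 ± 0.81 for Mcmdc2, -0.12 ± 0.94 for Tcf24 and 0.41 ± 0.80 for Ppp1r42. Their signs turned in 7 of 13, 6 of 14 and 1 of 13 alternatives. No gene was called in this comparison, with 722 genes (4.48%) under an unadjusted p of 0.05 and none of the 7 among them. The SEs of 0.77 to 1.0 leave differences of several-fold undetectable at this depth and spread.

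The spread without oxymetholone was itself wide. Over the 10 libraries the highest level was 18.4 times the lowest for Mcmdc2, 44.9 times for Tcf24 and 36.6 times for Ppp1r42. The ratio was 2.40 for Sgk3, 4.75 for Snhg6, 2.09 for Cops5 and 1.54 for Cspp1.

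The 3 genes varied together in those 10 libraries. Values of these libraries were among those that chose the genes. The permutation p-values below are therefore descriptions and no independent test. Tcf24 and Ppp1r42 had a Pearson r of 0.92 on log2 CPM (permutation p = 0.00021, adjusted p = 0.0011 over 21 pairs) and a Spearman rho of 0.83 (permutation p = 0.00424, adjusted p = 0.016). Without the 2 libraries farthest from the Tcf24 median r was 0.79. Mcmdc2 and Ppp1r42 had r of 0.81 (permutation p = 0.00374, adjusted 0.0111) and rho of 0.70 (permutation p = 0.0313, adjusted 0.0469). Mcmdc2 and Tcf24 had r of 0.78 (permutation p = 0.00971, adjusted 0.0185) and rho of 0.72 (permutation p = 0.0232, adjusted 0.0469). Without the 2 farthest libraries these last pairs had r of 0.48 and 0.47, so both relations rest largely on those libraries.

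Pairs with the flanking genes passed as well, and many other genes correlated as strongly. Over these libraries 9.41% of all pairs of genes in the table had an r of at least 0.66, the lowest that passed here. So did 16.2% of genes with Mcmdc2, 6.26% with Tcf24 and 10.6% with Ppp1r42. The share was 19% of genes with Sgk3, 21.6% with Snhg6, 21% with Cops5 and 10.1% with Cspp1. Of the 21 pairs among the 7 genes 18 passed an adjusted permutation p of 0.05, made up of 3 of 3 pairs among the low genes, 5 of 6 among the flanking genes and 10 of 12 between them. Snhg6 and Cops5 had the highest r, 0.96. Taken as deviations from group means, with exact permutation within groups, 17 pairs passed. Without metformin replicate 3, 8 of 21 passed. By Spearman rho these counts were 14 with all 10 libraries, 9 for deviations (1 of 3 among the low genes) and 4 without metformin replicate 3. Over the same 10 libraries Ppp1r42 ranked 2 of 16114 genes by r in likeness to Tcf24 and 43 by rho, while Tcf24 and Ppp1r42 ranked 1213 and 833 by r for Mcmdc2.

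**Figure D4:**
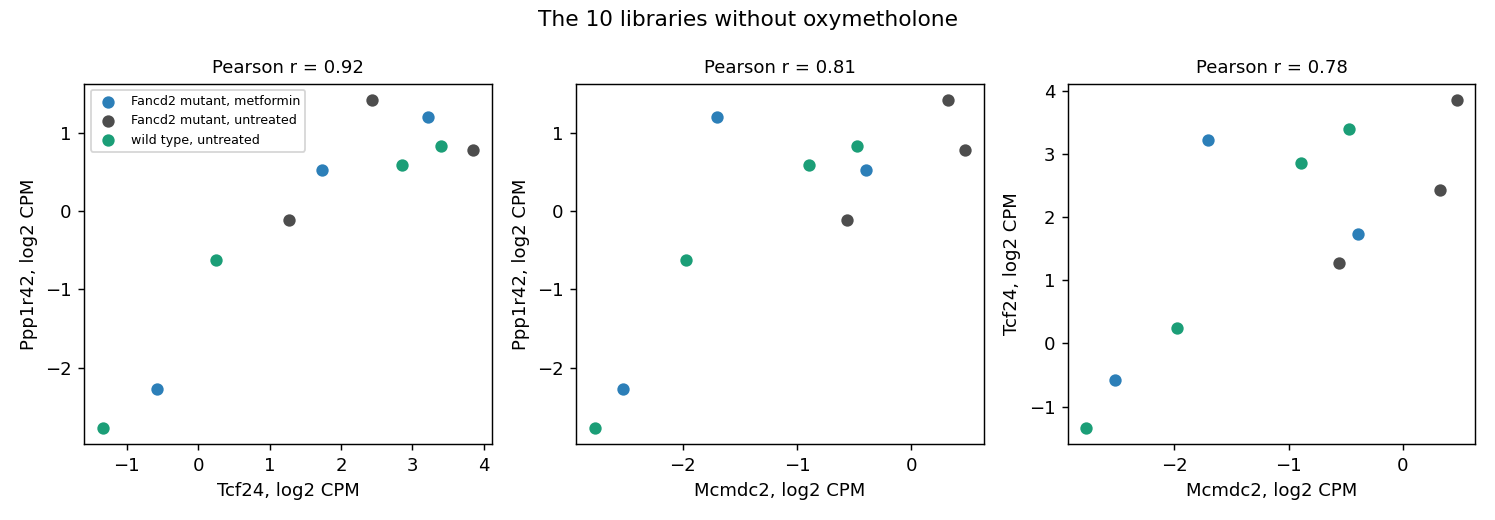
Log2 CPM of the 3 pairs of low genes in the 10 libraries without oxymetholone, coloured by group. Pearson r is 0.92 for Tcf24 and Ppp1r42, 0.81 for Mcmdc2 and Ppp1r42 and 0.78 for Mcmdc2 and Tcf24, and a wild type and a metformin library lie lowest in each.

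Over all 18 libraries, which share the difference that chose the genes, the gene most like Mcmdc2 was Tcf24 (r 0.91), followed by Ppp1r42 (0.90), Asb13 (0.87), Cldn1 (0.85) and Wrap73 (0.84). By Spearman rho the order was Asb13 (0.88), Cldn1 (0.86), Tcf24 (0.86), Dixdc1 (0.86) and Ubr1 (0.85), with 3 of 5 genes shared, and Ppp1r42 ranked 10. Cldn1 encodes a tight junction protein. The most opposite were Paqr8, Fsd2 and Scmh1 (each -0.84), Serpine2 (-0.83) and Atp10d (-0.82). The flanking genes ranked from 702 to 1028 of 16114, with r of 0.48 to 0.51. Asb13 differed by -0.64 ± 0.23 (log2) and Cldn1 by -1.22 ± 0.31 with oxymetholone against untreated mutants, and Paqr8, a membrane progestin receptor gene, by 4.0 ± 0.39.

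Related genes were examined as lists. No gene of the lists below was called by edgeR with oxymetholone against untreated mutants or with both drugs against metformin, where 0.0434% and 0% of all genes were called. An unadjusted p under 0.05 was reached by 4.8% and 3.43% of all genes. All 10 listed MCM genes were in the table, with a median of 0.38 (log2) in the first comparison and -0.23 in the second, against 0.03 and -0.02 for all genes, and none had an unadjusted p under 0.05. Of 38 listed meiotic recombination genes 16 were in the table, with medians of 0.06 and 0.12. Hsf2bp, a partner of BRCA2 in meiosis, was the 1 with an unadjusted p under 0.05, at 22.2 ± 8.43 CPM with both drugs and 10.7 ± 6.37 CPM with metformin. The 9 COP9 signalosome genes had medians of -0.08 and 0.05, with none under an unadjusted p of 0.05.

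Among 7 SGK kinases and regulators the medians were -0.20 and -0.18, and 1 gene in each comparison had an unadjusted p under 0.05. Of all genes 4.8% and 3.43% had one in the first and second comparison, so the few genes named here are examples only. Nedd4l, a ubiquitin ligase that SGK kinases phosphorylate, averaged 28.8 ± 5.88 CPM with oxymetholone and 41.9 ± 6.20 CPM in untreated mutants. Sgk2 averaged 27.8 ± 6.63 CPM with both drugs and 57.4 ± 6.84 CPM with metformin. Of 21 protein phosphatase 1 subunits, 2 had an unadjusted p under 0.05 in the first comparison, with Ppp1cc, a catalytic subunit, at 58.7 ± 18.0 CPM with oxymetholone and 86.5 ± 9.74 CPM in untreated mutants. The other, the glycogen-targeting subunit gene Ppp1r3g, was the opposite, at 0.339 ± 0.209 and 0.097 ± 0.105 CPM, and had 0.554 ± 0.510 CPM with both drugs against 0.147 ± 0.115 CPM with metformin, again with an unadjusted p under 0.05. Of 13 cilium genes 2 did so, with Arl13b at 7.16 ± 2.19 and 11.7 ± 3.22 CPM in oxymetholone and untreated mutant livers and Cep41 at 3.17 ± 1.01 and 1.91 ± 0.702 CPM. The 12 relatives of Tcf24 and the 13 hosts of small nucleolar RNAs had none in either comparison.

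Markers of other cells were compared with the 3 genes. Of 6 germ cell markers only Sycp3 was in the table, at 0.212 to 1.19 CPM with both drugs, 0.446 to 1.0 with oxymetholone, 0.462 to 0.985 with metformin, 0.178 to 1.10 in untreated mutants and 0.570 to 1.34 in wild type. These ranges overlapped. The 5 bile duct markers summed to 51.5 to 664 CPM with both drugs, 42.7 to 423 with oxymetholone, 34.3 to 500 with metformin, 60.3 to 1460 in untreated mutants and 49.9 to 247 in wild type. Metformin replicate 3 and wild type replicate 2, low for the 3 genes, had the highest bile duct sums of their groups, 500 and 247 CPM. In the same libraries stellate and fibroblast (464 and 292 CPM) and endothelial sums (57.4 and 46.5 CPM) were also the highest. The leukocyte sum was lowest in the first (105 CPM) and highest in the second (358 CPM). Untreated mutant replicate 2 had its group's highest bile duct sum (1460 CPM) and lowest level of each of the 3 genes. Its endothelial sum (44.1 CPM) was also the highest, but its stellate and fibroblast (148 CPM) and leukocyte sums (183 CPM) were the lowest. Both-drugs replicate 3 had its group's highest bile duct sum (664 CPM) and highest level of each gene. Hepatocyte sums were lowest of their group in wild type replicate 2 (41300 CPM) and untreated mutant replicate 2 (45400 CPM). They were also lowest in both-drugs replicate 3 (40200 CPM) and in metformin replicate 4 (32600 CPM), which had its group's highest Tcf24 and Ppp1r42. The part of other cell types in the low values was not tested, and in whole liver fewer cells of a type and less RNA per cell cannot be told apart.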

How the data were processed

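Liver RNA-seq of 5 groups was taken from 1 deposited table of 16115 genes. The authors deposited raw counts per gene and library, per the file headers, and a CPM signal, which equals CPM recomputed from the counts with edgeR's TMM factors (0.798 to 1.31). The deposited log2 residuals were not used. Log2 fold changes and p-values from the authors' deposited table are quoted only where named. Per the submitters' processing notes, reads were placed on GRCm39. How they were aligned and counted, and with which strand setting, is not given in the sources used here. Not analysed here were metformin replicate 2 and untreated mutant replicate 1, which had no column of counts in the table used. Replicates were numbered in record order because no label numbers them.

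Differences were fitted on counts with edgeR 4.0.16 in R 4.3.3 (TMM, filterByExpr, which removed 0 genes, robust quasi-likelihood, all 18 libraries with a coefficient for each group, Benjamini-Hochberg adjustment over all genes, threshold 0.05). The biological coefficient of variation was 0.426. The SE is the log2 difference divided by the root of F. Log2 CPM used a prior count of 2. Correlations used 100000 two-sided permutations. DESeq2 1.42.0, limma 3.58.1, other filters and leaving out each library were alternatives. The fit was tested on simulated data. The members and lists were chosen with earlier results of these data known. Named genes were the 7, their neighbours within 1 Mb, the 5 genes most and least like Mcmdc2, the 5 most like Tcf24 and Ppp1r42, and, from the lists, examples with an unadjusted p under 0.05.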

Additional observations from a re-analysis of the deposited data

Results flagged for a closer look

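Mcmdc2 in oxymetholone replicate 2 stood apart from its group, at 0.0371 CPM, which was a single count, while the other 4 libraries of the group had 0. With 4 libraries at 0 any single read would be flagged, so the usual rate of about 1 in 20 groups by chance does not apply to it. No other of the 14 pairs of gene and group with 4 or 5 libraries was flagged.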

How the results depend on the processing

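Oxymetholone against untreated mutants called 7 genes in edgeR, 78 in DESeq2 and 14 in limma-voom with quality weights, 4 to 7 with 1 library left out (4 without untreated mutant replicate 4), and 15 without metformin replicate 3 and both-drugs replicate 3. Both drugs against untreated mutants called 3, with 43 in DESeq2, 16 in limma-voom, 0 when fitted on the compared groups alone, 0 to 3 with 1 library left out (0 without untreated mutant replicate 2 or 4) and 5 without the 2 libraries named above. Both drugs against metformin called 0, with 10 in DESeq2, 3 in limma-voom and 0 to 2 with 1 library left out (2 without both-drugs replicate 3). DESeq2 called 11 genes for metformin against untreated mutants, 49 for metformin against wild type and 3 for the interaction, where edgeR called 0. Metformin against wild type called 0 to 67 with 1 library left out (67 without metformin replicate 1, 7 without replicate 4). The count of correlated pairs, 18, ranged from 8 to 20 with 1 library left out (8 without metformin replicate 3).

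Among the differences of the 3 low genes with metformin, with genotype and in the interaction of the drugs, those that changed sign were Tcf24 with metformin against untreated mutants (0.19 without untreated mutant replicate 3), Ppp1r42 in the same comparison (0.09 without metformin replicate 3, 0.01 without untreated mutant replicate 4, 0.10 without metformin replicate 3 and both-drugs replicate 3), Tcf24 in untreated mutants against wild type (-0.31 without untreated mutant replicate 3) and Mcmdc2 in the interaction (-0.13 without metformin replicate 3 and both-drugs replicate 3). The cause was not tested. Signs also turned for flanking genes with both drugs against untreated mutants (Snhg6 in 1, Cops5 in 2 and Cspp1 in 3 of 13 alternatives), among others. With 1 library left out, these differences ranged from -1.94 to 0.19 for Tcf24 and from -1.22 to 0.09 for Ppp1r42 with metformin against untreated mutants, and from -0.31 to 1.36 for Tcf24 in untreated mutants against wild type. The Mcmdc2 interaction ranged from 0.32 to 5.26.

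The 3 low genes kept their sign in every alternative run with oxymetholone against untreated mutants, a difference that was part of what chose them. The flanking genes Sgk3, Snhg6, Cops5 and Cspp1 kept their negative sign there too. Mcmdc2 ranged from -7.77 to -5.80 there, Tcf24 from -5.53 to -4.17 and Ppp1r42 from -4.89 to -4.11. A mean CPM of at least 1 removes Mcmdc2 and Ppp1r42 from the fit. Calls of these 3 carry no test here and were 3 of 78 genes in DESeq2 and 3 of 10 with compared groups alone. They were 2 of 15 without the 2 libraries and 1 of 14 in limma-voom. No paired analysis was run because the labels name no pairing of libraries between groups. Mcmdc2 had at most 32 counts in a library, which limits every comparison of it.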
